A study of Mus musculus with 6 samples.

Results

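The transcript rows of Tango2, Mast3 and Zmym1 were examined in a table of embryonic mouse heart RNA that gives 1 FPKM value (fragments relative to the length of the transcript and the size of the library) per transcript and library. The rows were taken by gene name, with every row of each gene included: 2 of Tango2, 9 of Mast3 and 4 of Zmym1, which makes 15 of the 60776 rows and 3 of the 26191 genes on the table. These genes were singled out because they differed between the groups in this table, so their own differences are given as a description, with no test. Control hearts (Ctrl) were Mrps5 fl/fl and mutant hearts (cKO) were Mrps5 fl/fl; cTNT-Cre. By these labels both groups carried the floxed allele on both chromosomes, and only the mutants carried a Cre recombinase. The main text of the study gives the same genotype, but captions in its supplement read fl/+ for the mutants. Cre was driven by the cardiac troponin T promoter, which acts in cardiomyocytes and leaves the other cells of the heart with an intact gene. Hearts were collected at embryonic day 12 by the labels (the text of the study gives a slightly later stage), controls were littermates, each library was a pool of hearts, and there were 3 libraries per group. Mrps5 encodes a protein of the mitochondrial ribosome.

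TANGO2 (transport and Golgi organization 2 homolog) was named after a screen for genes of secretion and Golgi structure, and its loss in people causes metabolic crises with muscle breakdown and cardiac arrhythmia. It has been linked to lipid and heme handling and to mitochondria, and its gene lies in the interval deleted in DiGeorge syndrome. MAST3 is a microtubule-associated serine/threonine kinase that is best known from the brain. ZMYM1 belongs to a family of nuclear proteins with MYM-type zinc fingers. Each of the 3 genes has several annotated transcripts that differ in their starts or exons, and where transcripts share most of their bases, the FPKM of a single row is an estimate of how shared fragments were divided among them.

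Some of the rows can be told apart by where they begin to code. The first bases of each coding sequence that begins with ATG are shown, read from GENCODE M21 transcripts, with that codon in capitals. Both Tango2 rows share 1 coding start and all 4 Zmym1 rows share another, so the rows of these genes differ in other parts of the transcript. The Mast3 rows use several coding starts, and Mast3-206, whose coding sequence does not begin with ATG, is left out.
Tango2-201 and Tango2-204: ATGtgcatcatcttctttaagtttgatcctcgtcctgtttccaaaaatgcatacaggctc
Zmym1-201, Zmym1-202, Zmym1-203 and Zmym1-205: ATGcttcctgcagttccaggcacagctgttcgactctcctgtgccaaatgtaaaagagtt
Mast3-201: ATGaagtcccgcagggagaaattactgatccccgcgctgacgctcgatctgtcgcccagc
Mast3-203, Mast3-205 and Mast3-208: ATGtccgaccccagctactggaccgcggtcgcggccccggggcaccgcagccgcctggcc
Mast3-204 and Mast3-211: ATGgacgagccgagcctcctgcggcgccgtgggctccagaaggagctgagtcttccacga
Mast3-209: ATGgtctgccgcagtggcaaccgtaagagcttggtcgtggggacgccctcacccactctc
Mast3-210: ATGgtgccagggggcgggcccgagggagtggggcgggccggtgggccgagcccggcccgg

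All 8 cardiomyocyte markers examined were present in every library (Tnnt2, which encodes cardiac troponin T, at 617 to 1044 FPKM), and all 8 were lower on average in the mutants, 4 of them at an unadjusted p under 0.05 by limma, a level that 15.0% of all tested genes reached. In bulk tissue, fewer cells of a type and less RNA per cell cannot be told apart. Erythroid markers made up 12.0 to 13.3% of the summed FPKM in the controls, and 23.5%, 10.8% and 21.96% in mutant replicates 1, 2 and 3. Mrps5 itself was at 9.65, 11.4 and 10.4 FPKM in control replicates 1, 2 and 3, and at 5.28 and 7.41 in the first pair of mutants. The library labelled mutant replicate 3 held 10.4 FPKM, inside the range of the controls, and is called mutant replicate 3 only after its label. Neuronal and neural crest markers, of interest because MAST3 is a brain kinase, summed to 3.91 to 7.03 FPKM in the controls and 6.04 to 6.56 in the mutants, and none of the 6 was at 0 in any library.

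The 3 genes fell into 3 different patterns. Tango2 was listed in every control and at 0 in every mutant library, Mast3 was listed at 0 in every control and above 0 in every mutant library, and Zmym1 was lower but present in the mutants. Of the 15 rows, 7 were at 0 throughout one group and above 0 in every library of the other, and 5 were at 0 throughout one group and above 0 in only some libraries of the other. In 2 rows, Zmym1-201 and Zmym1-205, the values were above 0 in all 6 libraries and did not overlap between the groups, and in 1 row, Zmym1-203, they overlapped. In the whole table the groups did not overlap in 17.6% of the 20370 rows tested and in 20.8% of the 13260 genes tested. By limma 10.2% of the rows tested had an unadjusted and 0.0344% an adjusted p under 0.05. With no filter on low values, which most of the 15 rows did not pass, the groups did not overlap in 13.6% of 46280 rows. The patterns of zeros given above were not counted over the whole table. Nothing is read from these shares about the 3 genes, which this contrast chose. Of the 15 rows, 4 reached 1 FPKM in at least 3 libraries, the level required for testing: both Tango2 rows and Zmym1-201 through the controls alone, and Zmym1-203 through both groups.

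**Figure D1:**
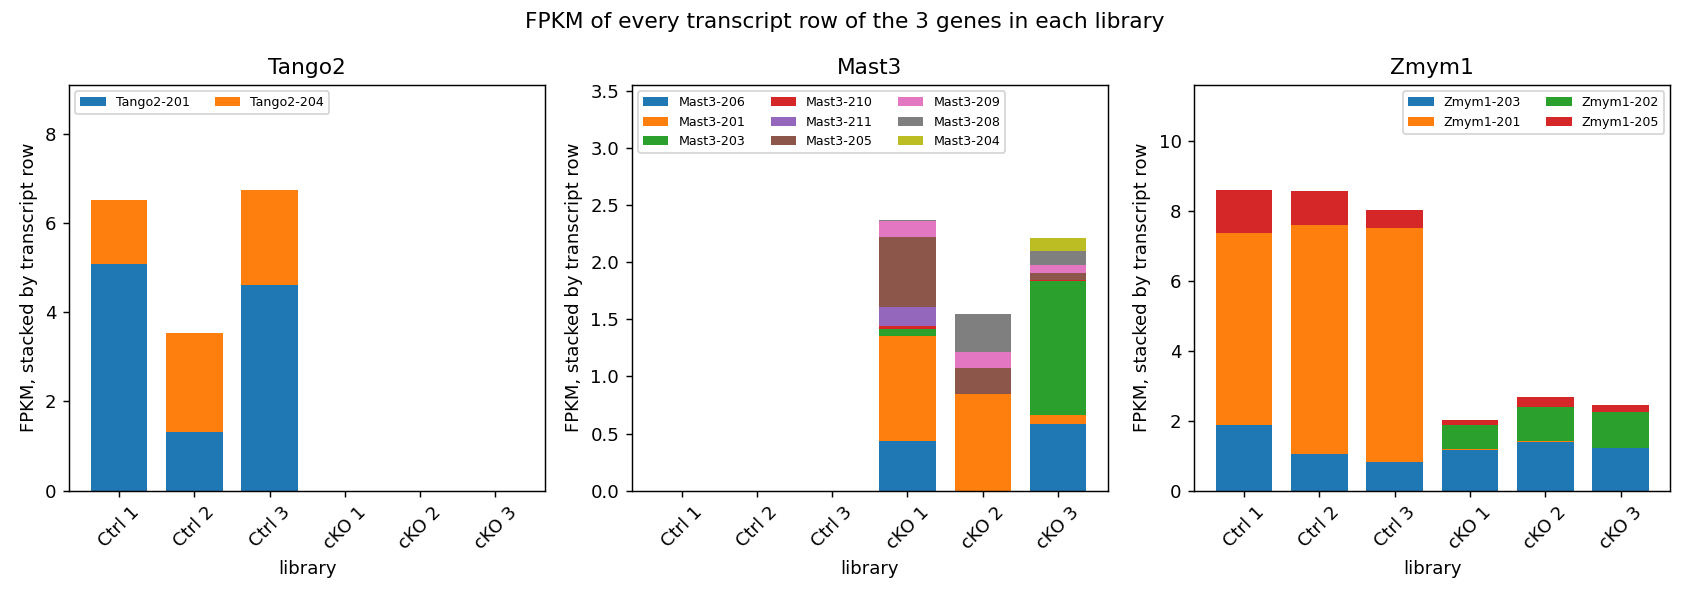
FPKM of each transcript row of Tango2, Mast3 and Zmym1, stacked in the 3 control and 3 mutant libraries; the height of a bar is the sum over the rows of a gene, and the FPKM axis differs between the panels. Tango2 has no bar in the mutants and Mast3 none in the controls, the division of Mast3 among its rows differs from library to library, and the row Zmym1-201 is close to 0 in all 3 mutant libraries.

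Tango2 (ENSMUSG00000013539) summed to 6.51, 3.52 and 6.73 FPKM in control replicates 1, 2 and 3 and was listed at 0 in all 3 mutant libraries. Control replicate 2 was the lowest of the controls. Tango2-201, the longer row with 9 exons and 1622 bases, stood at 5.07, 1.32 and 4.62 FPKM in the controls. Tango2-204, a row of 5 exons and 496 bases, stood at 1.44, 2.21 and 2.12 FPKM. The longer row made up 77.9% of the sum in control replicate 1 and 68.5% in replicate 3, but 37.4% in replicate 2, so the low sum of replicate 2 lay in Tango2-201 alone. Tango2-201 has 1223 exonic bases that the other row lacks and Tango2-204 has 97, and both rows were at 0 in each mutant library. GENCODE M21 holds 19 transcripts of Tango2, 7 of them protein coding, of which the table lists 2.

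The depth behind these values was estimated from the steps between low FPKM values of genes with a single row, which put the libraries at about 16800000 to 27200000 fragments. Between 63.4% and 65.3% of such low values came within 0.1 of a whole number of fragments, so the numbers of fragments given here are approximate. On this scale the Tango2 rows held about 150, 62 and 199 fragments in control replicates 1, 2 and 3. The zeros of the mutants are listed estimates and not counts, and no upper limit is drawn from them.

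The starts of both listed Tango2 rows, 140 bases apart, lie inside each of 2 overlapping promoter windows of RefSeq. Of these windows, 1 is shown. It lies at chr16:18343883-18344182 on the minus strand of GRCm38.p6, from 250 bases before to 50 bases after an annotated start, and the motif GGGCGG, searched on both strands, is in capitals.
Tango2 promoter: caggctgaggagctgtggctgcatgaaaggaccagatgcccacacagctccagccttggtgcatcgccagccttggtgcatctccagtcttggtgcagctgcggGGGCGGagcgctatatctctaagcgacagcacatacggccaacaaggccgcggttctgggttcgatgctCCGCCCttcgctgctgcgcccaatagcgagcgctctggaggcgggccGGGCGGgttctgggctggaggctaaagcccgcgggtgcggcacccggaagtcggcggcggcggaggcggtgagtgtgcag
Its GC content was 66.7%, against a median of 52.7% over 32851 windows, and it held GGGCGG 3 times, a motif present in 35.7% of all windows. Of the other 2 windows given for Tango2, 1 overlaps this window and holds the same starts, and 1 lies upstream and holds the start of no listed row.

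Genes next to Tango2 also had whole-gene zeros, but these zeros did not follow the genotype. Dgcr8, which encodes a subunit of the microRNA processing complex, was listed at 0 in control replicates 1 and 2 and in mutant replicate 3, and at 7.79, 7.88 and 8.39 FPKM in control replicate 3 and mutant replicates 1 and 2. Trmt2a, a tRNA methyltransferase gene, was at 0 in every library but mutant replicate 3, where it stood at 4.22. Zdhhc8, a palmitoyltransferase gene, was at 0 in control replicates 2 and 3 and in mutant replicate 3, and at 2.91 to 4.34 in the others. In each of the 6 libraries at least 1 of Tango2, Dgcr8, Trmt2a and Zdhhc8 was listed at 0 and at least 1 was listed above 2 FPKM. Ranbp1, between them, and Arvcf, beyond them, had values in every library, at 63.0 to 78.8 and at 3.18 to 4.22 FPKM. Arvcf had a log2 fold change of -0.05 (standard error 0.12) on the log2(FPKM + 1) scale, with an adjusted p of 0.866 by limma.

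**Figure D2:**
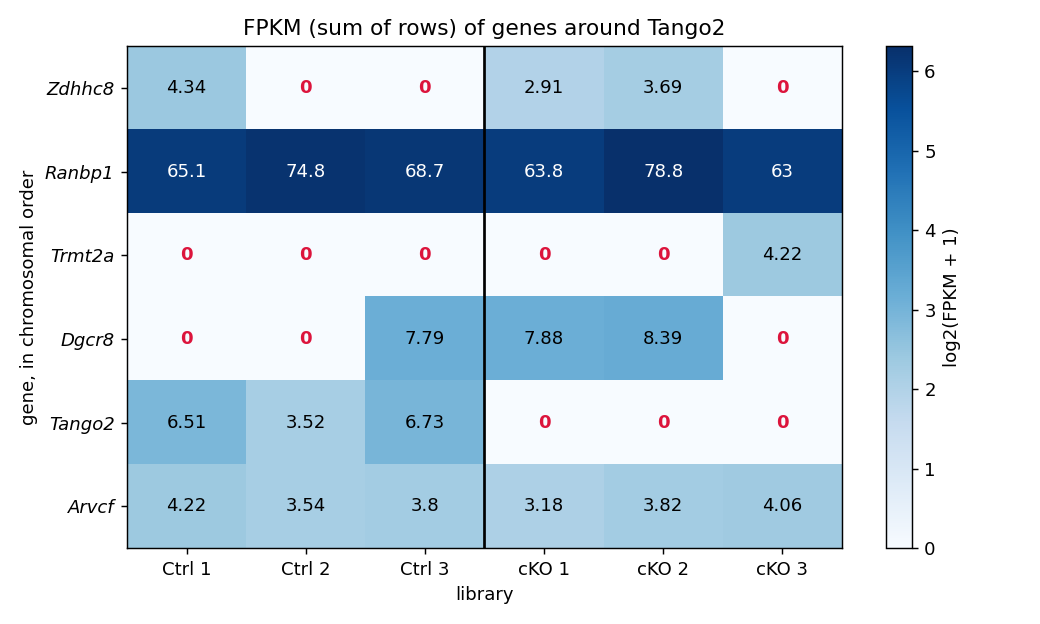
FPKM, summed over the rows of each gene, of Tango2 and 5 genes around it in chromosomal order (top to bottom) in the 3 control and 3 mutant libraries; the printed numbers are FPKM, zeros are in red, and the colour is log2(FPKM + 1). Tango2 is at 0 in the mutants alone, whereas the zeros of Zdhhc8, Trmt2a and Dgcr8 occur in both groups.

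Zeros of this kind were looked for across the table. In 34 genes the sum was exactly 0 in some libraries and at least 1 FPKM in all the others, with nothing in between. In 2 of them, Tango2 and Mast3, the zeros filled one group and spared the other. In 20 the zeros fell in libraries of both groups, and in 12 they fell in some libraries of 1 group. Of the 5 genes at 0 in exactly 3 libraries, the 3 that did not follow the genotype were Dgcr8, Zdhhc8 and Ppp2r5b. Ndufs3, which encodes a core subunit of mitochondrial complex I, was at 28.0, 27.6, 23.6 and 34.3 FPKM in control replicates 1 and 3 and mutant replicates 1 and 3, and at 0 in replicate 2 of both groups. A gene of such general use at 0 in some libraries of both groups is why Tango2 and Mast3 are said here only to be listed at 0, with no fold change. None of 27 housekeeping genes was at 0 in any library, although 7 of their 84 rows were at 0 in some libraries only and 14 in every library. Of all genes at 1 FPKM or more in some library, 14084 of 14233 were above 0 in every library, so this is usual in the table. Of all rows at that level, 22962 of 25110 were above 0 in every library.

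**Figure D3:**
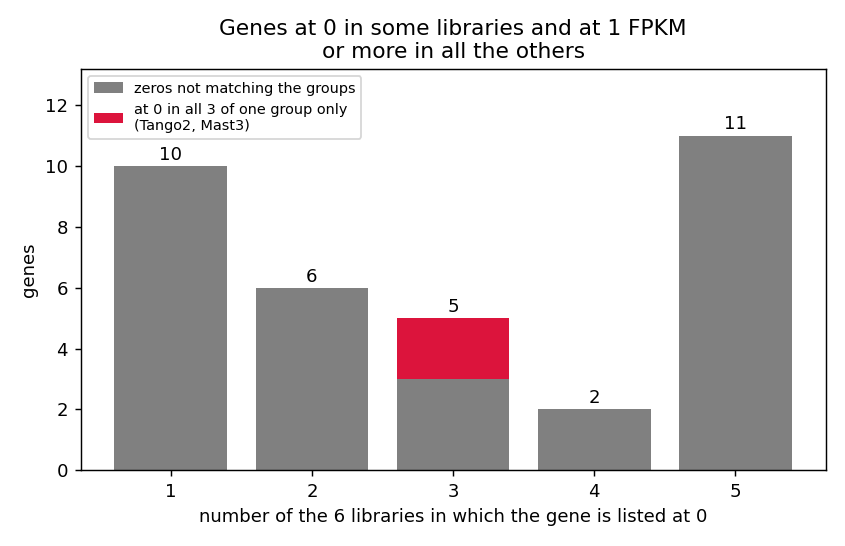
Number of genes listed at 0 in 1 to 5 of the 6 libraries and at 1 FPKM or more in all the others. Of these 34 genes, the 2 in red, Tango2 and Mast3, are at 0 in all 3 libraries of one group and in none of the other.

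Such genes lay close together. Of the 34 genes, 25 could be placed in the chromosomal order of the genes on the table, leaving out annotated genes that the table does not list, and 15 of these (60%) had another such gene within 5 places on either side, against 82 (0.680%) of the 12058 placed genes that were at 1 FPKM or more in every library or held such zeros. Tango2 was among them, through Dgcr8, Trmt2a and Zdhhc8. Other runs were Nadk2, Skp2 and Lmbrd2, then Ppp2r5b, Men1, Pygm and Rasgrp2, and the pairs Ndufs3 and Kbtbd4, and Fzd6 and Slc25a32. In the first of these, Nadk2 was listed at 17.2 FPKM in control replicate 2 alone, which was the 1 library in which Skp2 was at 0. Mast3 had no such gene within 5 places. Neighbouring genes are not independent of each other, and these shares are a description.

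Mast3 (ENSMUSG00000031833) was listed at 0 in all 3 controls and summed to 2.37, 1.55 and 2.22 FPKM in mutant replicates 1, 2 and 3, about 136, 111 and 199 fragments. The division of these sums among the 9 rows differed from library to library. Mast3-201, the longest row with 27 exons and 5305 bases, stood at 0.919 and 0.849 FPKM in mutant replicates 1 and 2 and at 0.0767 in replicate 3. Mast3-203, a row of 26 exons and 4251 bases, stood at 0.0668, 0 and 1.18. Mast3-206, which begins within the gene, stood at 0.434, 0 and 0.583. Mast3-201 was thus the highest of these 3 rows in mutant replicates 1 and 2 and the lowest in replicate 3. The remaining rows were short, at 322 to 530 bases, and none exceeded 0.610 FPKM, the value of Mast3-205 in mutant replicate 1. Only 4 of the 9 rows were above 0 in all 3 mutant libraries: Mast3-201, Mast3-205, Mast3-208 and Mast3-209. None of the 9 rows reached 1 FPKM in 3 libraries, and the only row to reach it in any library was Mast3-203 in mutant replicate 3.

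Grouped by annotated start, the Mast3 sum was divided over 5 starts in mutant replicates 1 and 3 and over 3 of them in replicate 2. The start shared by Mast3-203, Mast3-205 and Mast3-208 held 28.8%, 35.8% and 61.2% of the sum in mutant replicates 1, 2 and 3, or 0.683, 0.554 and 1.36 FPKM. The start of Mast3-201 held 38.8%, 54.9% and 3.46%. The most upstream start, of Mast3-204, Mast3-210 and Mast3-211, held 8.0%, 0% and 5.93%, and that of Mast3-206, 21566 bases downstream of it, held 18.3%, 0% and 26.3%. The start of Mast3-209 held the remaining 3.13 to 9.31%. Few exonic bases belong to 1 row alone, with 89 found in Mast3-201 and in no other Mast3 row and 15 found in Mast3-203 alone, so most bases of either long row also lie in another row.

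Mast3-203, Mast3-205 and Mast3-208 share the start with the most rows above 0 in every mutant library. Of these rows, Mast3-205 and Mast3-208 held only about 0 to 6 fragments in each mutant library, and Mast3-203 was at 0 in mutant replicate 2. The 1 RefSeq window given for Mast3 holds this start and is shown as the only one given. It lies at chr8:70792384-70792683 on the minus strand of GRCm38.p6, with GGGCGG on either strand in capitals.
Mast3 promoter: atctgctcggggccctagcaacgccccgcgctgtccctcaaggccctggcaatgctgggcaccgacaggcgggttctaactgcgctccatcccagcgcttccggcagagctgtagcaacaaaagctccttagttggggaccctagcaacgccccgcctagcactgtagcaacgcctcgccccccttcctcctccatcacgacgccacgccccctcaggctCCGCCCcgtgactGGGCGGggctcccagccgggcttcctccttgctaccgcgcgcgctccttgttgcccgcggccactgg
Its GC content was 68.3% and it held the motif 2 times. Of the 10 nearest annotated genes, the table lists 5. Pik3r2, a regulatory subunit gene of phosphoinositide 3-kinase, was at 3.70 to 4.68 FPKM in the controls and 3.87 to 5.54 in the mutants (log2 fold change 0.09, standard error 0.14, adjusted p = 0.793 by limma). Mpv17l2, which encodes a protein of the inner mitochondrial membrane, was at 2.58 to 2.92 in the controls and 3.18 to 3.47 in the mutants, values that did not overlap but gave an adjusted p of 0.442. Il12rb1 was at 0 in all 6 libraries. Arrdc2 was at 0.166, 0 and 0.769 FPKM in the controls and at 0 in all 3 mutants, the opposite direction to Mast3 and under the level required for testing. Kcnn1 was at 0.332, 0.544 and 0.289 in the controls and 1.21, 0.923 and 0.427 in the mutants, with the groups overlapping.

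Zmym1 (ENSMUSG00000043872) summed to 8.59, 8.57 and 8.01 FPKM in the controls and 2.03, 2.67 and 2.44 in the mutants. The sums were tight within each group, and the mutant mean was 0.283 of the control mean. The log2 fold change was -1.48 on the log2(FPKM + 1) scale and -1.49 without the library labelled mutant replicate 3. The rows of the gene differed unequally. Zmym1-201 stood at 5.49, 6.56 and 6.69 FPKM in the controls and at 0.0116, 0.0163 and 0.0169 in the mutants, about 1 fragment per library. It supplied 63.9 to 83.4% of the gene's sum in the controls and 0.570 to 0.693% in the mutants. Zmym1-202 differed in the other direction, at 0 in all 3 controls and at 0.702, 0.981 and 1.01 FPKM in the mutants. Zmym1-205, a short row of 621 bases, was at 1.24, 0.973 and 0.521 in the controls and 0.151, 0.264 and 0.196 in the mutants, with no overlap. Zmym1-203, the longest row at 3852 bases, was at 1.86, 1.04 and 0.806 in the controls and 1.17, 1.40 and 1.21 in the mutants, with the groups overlapping.

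The rows of Zmym1 divide by their start. Zmym1-202, Zmym1-203 and Zmym1-205 start within 66 bases of each other, and Zmym1-201 starts 2166 bases downstream, at the start codon itself. Together the 3 upstream-start rows stood at 3.10, 2.01 and 1.33 FPKM in the controls, 2.15 ± 0.894 (SD, n = 3), and at 2.02, 2.65 and 2.42 in the mutants, 2.36 ± 0.318 (SD, n = 3). The groups overlapped, and the difference of the means was smaller than the spread of the controls. The net difference of Zmym1 thus lay in Zmym1-201, whose mean was 6.25 ± 0.658 FPKM in the controls and 0.0149 ± 0.00291 in the mutants (SD, n = 3). Zmym1-201 has no exonic base of its own, since all of it is contained in Zmym1-203, and the same holds for Zmym1-202. Zmym1-203 has 527 exonic bases that no other listed row has. Zmym1-203 begins to code at its base 353 and runs on past the end of Zmym1-201, so the division between these rows rests on the bases at both ends, and a fragment from the shared bases does not by itself belong to either row.

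**Figure D4:**
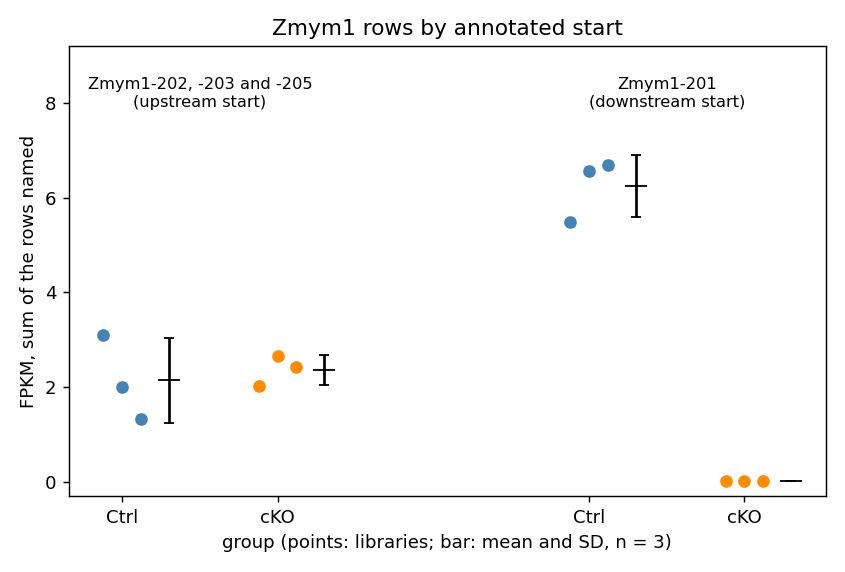
FPKM of the Zmym1 rows with the upstream start (summed over 3 rows, left) and of Zmym1-201 with the downstream start (right) in the control and mutant libraries; points are libraries and bars are the mean and SD (n = 3). The upstream-start rows lie between 1.33 and 3.10 FPKM and overlap between the groups, while Zmym1-201 is at 5.49 to 6.69 in the controls and below 0.0169 in the mutants.

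The share of row differences that cancel within a gene was computed to tell net change from exchange between rows. It is 0% when all rows move one way and 100% when gains equal losses. In Tango2 and Mast3 every row is at 0 in one group, which fixes the share at 0%, so it tells nothing of exchange in these genes. In Zmym1 the row differences of the group means summed to 0.924 FPKM upwards and -6.94 FPKM downwards, so that 23.5% was exchanged, and the share stayed between 21.8% and 29.5% when any 1 library was left out. The background was the 8171 genes at 1 FPKM or more in at least 3 libraries that had at least 2 rows above 0 in some library. Over these genes the median was 26.0%, and 27.9% of them were at 0%. The share of Zmym1, whose upward part was nearly all Zmym1-202, was close to this median, and 48.5% of these genes had a smaller share. A net difference lowers the share, and Zmym1 was singled out for its difference, so nothing is read from this rank.

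The locus of Zmym1 held 1 further gene with lower values in every mutant than in any control. Gm12940, a noncoding gene annotated on the opposite strand, shares 1709 of its 2680 exonic bases with Zmym1-201, Zmym1-202 and Zmym1-203. It was listed at 62.3, 51.7 and 52.4 FPKM in the controls and 40.1, 42.4 and 36.1 in the mutants. Its log2 fold change of -0.48 (standard error 0.10) did not pass the threshold of 0.05 in limma (unadjusted p = 0.00157, adjusted p = 0.137). The libraries were made strand-specific, but whether strand was used in estimating FPKM is not given in the sources used here. The part of Gm12940 reads in the Zmym1 values was not tested. The protein-coding neighbours Zmym4, Sfpq, Zmym6 and Tmem35b had log2 fold changes of -0.17 to 0.00, and adjusted p-values of 0.552 or more. Zmym4 and Zmym6, which belong to the same family, stood at 17.9 ± 0.769 and 5.52 ± 0.431 FPKM in the controls and at 16.3 ± 1.56 and 5.57 ± 0.990 in the mutants (SD, n = 3).

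Rows that were at 0 throughout one group and at 1 FPKM or more throughout the other were rare. The table held 8 of them, 0.0436% of the rows at 1 FPKM or more in every library of a group, and 2 of the 8 were those of Tango2. The other 6 belonged to Mbnl1, Tars2, Wdr45, Ikbkg, Tnni2 and a noncoding locus, and in each of these the sum of the gene's rows was above 0 in both groups. Tars2, which encodes the mitochondrial threonyl-tRNA synthetase, is an example: its row was at 0 in the controls and 5.98 to 6.30 FPKM in the mutants, while its gene mean was 12.4 and 13.6. Both listed rows of Tango2 are among the 8, so the sum of the gene is at 0 in the mutants as well. By the gene sum, 2 genes of 12921 (0.0155%) were on in one group and at 0 in the other, Tango2 and Mast3. Mast3 was found by its sum and not by any single row. Both genes were singled out by this contrast, so nothing is read from these shares about them. The number of such rows was between 20 and 34 when any 1 library was left out, and that of genes was 2 or 3 except without control replicate 1, where it was 5. Neither count can fall when a library is left out, since the rule then has fewer libraries to meet.

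Genes related to the 3 by place, family or function were counted in the fit of all genes, where 11 of 13260 genes (0.083%) had an adjusted p under 0.05, 15.0% had an unadjusted p under 0.05 and the median log2 fold change was -0.02. No gene of 5 lists of related genes passed the adjusted threshold in all 6 libraries. Across the lists, 6 genes passed it without mutant replicate 2, and 1 without the library labelled mutant replicate 3. In these settings 121 (0.913%) and 270 (2.04%) of all 13260 genes passed it. Of 17 tested genes in the Tango2 interval, 1 had an unadjusted p under 0.05, and the median log2 fold change was 0.09. This was Slc25a1, the mitochondrial citrate carrier gene, at 10.4 ± 0.488 FPKM in controls and 12.4 ± 0.447 in mutants (SD, n = 3; log2 fold change 0.24, standard error 0.08, adjusted p = 0.249 by limma). Of these 17 genes, 10 were higher and 7 lower on average in the mutants. The count at an unadjusted p under 0.05 was 0 without control replicate 2 or mutant replicate 1, and 2 without mutant replicate 2 or the library labelled mutant replicate 3.

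Among the other MAST kinases, Mast2, Mast4 and Mastl were tested, and Mast1 was below 0.113 FPKM in every library. Mast4 was at 21.03 ± 2.18 FPKM in controls and 17.3 ± 1.51 in mutants (SD, n = 3; log2 fold change -0.27, standard error 0.10, unadjusted p = 0.0311, adjusted p = 0.288 by limma). No gene of the MAST list kept an unadjusted p under 0.05 with the replicate block, or without any 1 of control replicates 1 and 3 and mutant replicate 1. Mast2 was at 17.3 ± 0.248 and 17.8 ± 0.413 FPKM, and Mastl, the kinase also called Greatwall, at 6.80 ± 0.728 and 6.90 ± 0.513. No other MAST kinase was listed at 0 in any library. All 5 of the other MYM-type zinc finger genes were tested, with a median log2 fold change of -0.14. Zmym3 was at 12.3 ± 0.692 FPKM in controls and 10.4 ± 0.746 in mutants (SD, n = 3; log2 fold change -0.22, standard error 0.09, unadjusted p = 0.0371, adjusted p = 0.304 by limma). The other 4 had unadjusted p-values of 0.150 or more. After rescaling without erythroid markers, or without any 1 control replicate or the library labelled mutant replicate 3, no gene of the MYM list had an unadjusted p under 0.05.

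Genes of heme synthesis, transport and breakdown, listed because TANGO2 has been linked to heme, had higher means in the mutants in 14 of 18 cases. Their median log2 fold change was 0.41, and 9 of them had an unadjusted p under 0.05, each with the higher mean in the mutants. Hmox1, which encodes the inducible heme oxygenase, was at 7.35 ± 0.947 FPKM in controls and 13.7 ± 3.42 in mutants (SD, n = 3; log2 fold change 0.79, standard error 0.18, adjusted p = 0.141 by limma). Cpox, a gene of heme synthesis, was at 47.7, 67.7 and 51.1 FPKM in the controls and at 106, 76.7 and 138 in mutant replicates 1, 2 and 3. The mutants with the most Cpox were replicates 1 and 3, those with the most erythroid markers, whereas Hmox1, at 15.2, 16.1 and 9.77 FPKM in the 3 mutants, did not follow that order. The part of erythroid cells in these values was not tested. The 9 genes became 4 without any 1 of control replicate 1, control replicate 3, the library labelled mutant replicate 3 and mutant replicate 1, 6 without control replicate 2, 12 without mutant replicate 2 and 4 with no filter on low values. Of 31 tested genes of ER to Golgi transport and Golgi organization, 1 had an unadjusted p under 0.05, Cope, which encodes a coatomer subunit, at 43.3 ± 3.49 FPKM in controls and 49.96 ± 1.24 in mutants (SD, n = 3; adjusted p = 0.316 by limma). The median log2 fold change of that list was 0.04. Its count was 0 without control replicate 1, mutant replicate 2 or the library labelled mutant replicate 3, and 2 with the replicate block.

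The genes whose pattern over the 6 libraries was most like that of each of the 3 were ranked by Pearson's r of log2(FPKM + 1), which is given as a description, since any gene that separates the groups cleanly ranks high. The closest to Tango2 were Ptges3l (r = 0.992), Samd4 (r = 0.991) and Gbp9 (r = 0.991), and 81 genes exceeded 0.95. Ptges3l stood at 20.0 to 23.3 FPKM in the controls and 14.4 to 15.4 in the mutants, a graded difference and not a loss. The closest to Mast3 were B3gnt7 (r = 0.990), Clpb (r = 0.989) and Fam212a (r = 0.986), and 52 genes exceeded 0.95. Clpb, which encodes a mitochondrial disaggregase, stood at 6.38 to 6.60 FPKM in the controls and 8.19 to 9.10 in the mutants. The closest to Zmym1 were Tmem218 (r = 0.998), Ppargc1a (r = 0.997) and Rps6kb1 (r = 0.992), and 96 genes exceeded 0.95. Ppargc1a, which encodes the coactivator of mitochondrial biogenesis PGC-1alpha, stood at 15.7 to 16.1 FPKM in the controls and 12.7 to 13.1 in the mutants. None of these 9 genes was at 0 in any library.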

How the data were processed

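RNA of pooled embryonic hearts, freed of ribosomal RNA, had been made into strand-specific libraries. The authors deposited 1 table of FPKM per transcript and library. The submitters' processing notes name Bowtie2 2.2.8, HISAT2, StringTie 1.3.1, Cuffdiff 2.1.1 and the build mm9, and the annotation release is not given in the sources used here. Rows were named and described from GENCODE M21 (GRCm38), which held 57382 of the 57676 Ensembl rows, and no coordinate of the table was used. FPKM of the rows of a gene were summed, 1 was added, and log2 values were compared with limma 3.58.1 in R 4.3.3 over 13260 genes, or 20370 rows, at 1 FPKM or more in at least 3 of 6 libraries, in place of the study's test of single genes. P-values are two-sided with Benjamini-Hochberg adjustment. The fit was tested on simulated data. The genes named were the 3 genes, Mrps5, the 3 most correlated genes of each, the 5 nearest genes on each side and up to 4 list genes with the smallest p. Genes with zeros or on-off rows, and Ranbp1, were named after their values were seen. The 3 genes and the lists were chosen with earlier results of these data known. Fragments were estimated with 10 bases taken off each transcript length. Alternatives were another pseudocount, scaling, filter, the replicate number as a block, the most abundant row alone, other on-off limits and leaving out each library.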

Additional observations from a re-analysis of the deposited data

How the results depend on the processing

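Zmym1 stayed lower in the mutants under each alternative run. The zeros of Tango2 and Mast3 remain 0 under any of them by construction, so only the size of the other group could move, and differences of means take the listed zeros as 0. The values moved most with the most abundant row alone, which gave an FPKM difference of -3.67 for Tango2 and 0.615 for Mast3 and a log2 fold change of -2.83 for Zmym1, and with a pseudocount of 0.1 or 0.5, which gave -1.78 and -1.63 for Zmym1. Another pseudocount was not run for Tango2 and Mast3, since no fold was computed against a group listed at 0. Leaving out 1 library gave -6.62 to -5.02 FPKM for Tango2, 1.88 to 2.29 for Mast3 and -1.54 to -1.40 on the log2 scale for Zmym1. On-off rows numbered 26 with a limit of 0.5 FPKM, 5 with 2 FPKM and 13 with values under 0.1 counted as 0, and on-off genes 4, 1 and 2, with 20 to 34 rows and 2 to 5 genes when a library was left out. The rule fixes the direction in which each of these counts can move. The count of genes called was 6 with no filter on low values and 5 to 270 without 1 library, the highest without the library labelled mutant replicate 3. The count of rows called, 7 of 20370 (0.0344%), was 3 with a pseudocount of 0.1, 2 after rescaling without erythroid markers, 2 with no filter, 2 with a filter on the mean and 7 to 50 without 1 library. Genes called in the lists numbered 0 to 6 without 1 library. The sources used here do not say that replicate numbers mark a shared source, and deviations of same-numbered libraries correlated at 0.217, 0.110 and 0.0901. A fit that took this number as a replicate block called 4 genes and 1 row, and the differences of Tango2, Mast3 and Zmym1 cannot move in it, since each number occurs once in each group. The cause of these changes was not tested. Zmym1-201 in the mutants and several short Mast3 rows stood for about 1 fragment, which limits their precision.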
